A study of Sus scrofa with 24 samples.

Results

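HOX genes were measured by RNA sequencing in the colon and in libraries labelled ileum from pregnant sows. Genes at the posterior end of HOXA, HOXB and HOXD, but not HOXD12, were abundant in the colon and nearly absent from the libraries labelled ileum. Those of HOXC had few or no counts in the colon. HOXA11, HOXA13, HOXB13, HOXD10, HOXD11 and HOXD13 had at most 0.0690 FPKM in any library labelled ileum, and passed the filter on low counts only through the colon. Of the anterior genes, HOXB2 and HOXA3 did not pass the test between the tissues, and HOXB3 and HOXD3 were higher in the colon. HOXA2 was lower, a direction that turned with the libraries taken as ileum. By edgeR no HOX gene passed the test for dietary fibre or for N-carbamylglutamate, whereas DESeq2 called 2 for N-carbamylglutamate in the colon, HOXA6 and HOXA5. The members are the rows whose name is HOX, a cluster letter from A to D and a number, and there were 36 of them among 20674 genes, with 11 in HOXA, 8 in HOXB, 9 in HOXC and 8 in HOXD. HOXB4, HOXB9 and HOXD4 had no row under these names and were not analysed here.

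HOX genes encode homeodomain transcription factors that give cells along the body axis their regional identity. In vertebrates they sit in clusters in which genes with low paralogue numbers lie at one end, are active early and reach far towards the head, and genes with high numbers lie at the other end and are active towards the tail. In the gut of mouse and chick embryos this order is seen mainly in the mesenchyme and its smooth muscle, and the genes with the highest numbers mark the hindgut.

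The libraries come from female pigs, Sus scrofa, whose breed and age are not given in the sources used here. Diets ran from breeding through gestation to day 114. HN sows received 7.46% crude fibre with 0.05% N-carbamylglutamate (NCG, an analogue of the activator of the first urea cycle enzyme), HF sows the same fibre without NCG, LN sows 3.73% crude fibre with 0.05% NCG, and LF sows 3.73% crude fibre alone. Each diet was fed to 100 sows, and the 8 groups, 4 diets in each tissue, have 3 libraries each. The labels do not say that libraries of a group, or a colon and an ileum library of the same number, come from separate sows, so p-values measure the spread between libraries as labelled. The labels also do not give the segment of the colon or the layers of the wall that were taken.

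The label ileum did not match the markers in most libraries. Of the 12 libraries labelled ileum, HN 2, HF 2 and LF 1 held 827, 4262 and 8419 CPM of FABP6, the ileal bile acid binding protein. CPM are read counts scaled to library size, with sizes adjusted by the trimmed mean of M values (TMM). The other 9 held 0 to 38.0 CPM, within reach of the colon, where it was 0.0665 to 15.9 CPM. Those 9 held GATA4, a transcription factor of the proximal small intestine in mouse and human, at 71.7 to 161 CPM and PDX1, a factor of the duodenum and pancreas, at 24.5 to 62.0 CPM. In HN 2, HF 2 and LF 1 GATA4 was 0.573 to 1.09 CPM and PDX1 0.287 to 0.515 CPM. No LN library was among those 3. All 12 are called "labelled ileum" below, and for the members named, the tissue comparison is also given without the 3 libraries with FABP6 above 500 CPM and with only those 3 as ileum, a choice made after seeing the data. Of the colon libraries, HN 1 and LF 2 held only 50.2 and 18.9 CPM of the epithelial gene EPCAM, against 333 to 1239 CPM in the other 10. Library totals were 14843272 to 18575695 counts in the colon and 11951729 to 19896941 in the libraries labelled ileum.

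The clusters lie on 4 chromosomes of the build Sscrofa11.1. HOXA lies on chromosome 18, with HOXA13 to HOXA2 from 45373340 to 45473345, HOXB spans chromosome 12 from 24784953 to 24950661, HOXC chromosome 5 from 19151096 to 19268267, and HOXD chromosome 15 from 81893997 to 81990026. All 36 rows have the same start and end in the RefSeq annotation of that build. HOXB13 stands apart from its cluster, 68600 bases from HOXB8. Of the members 7 overlap other rows, namely HOXA3 with HOXA4, HOXA5 and HOXA6, and HOXD9 with HOXD10 and HOXD11. How counting treated such reads, and whether it used strand, is not given in the sources used here, so the split of reads within these sets is uncertain. Levels below are FPKM, the CPM per kilobase of gene length, with the same TMM scaling.

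The summed HOX level was 164, 185 and 254 FPKM (lowest, median and highest of 12) in the colon, against 7.57, 18.5 and 92.7 FPKM in the libraries labelled ileum. Every colon library lay above every library labelled ileum. HN 2, HF 2 and LF 1 held 86.1 to 92.7 FPKM, and the other 9 held 7.57 to 75.0 FPKM with a median of 16.2. The top of those 9 was LF 3, a library with 7859 CPM of the smooth muscle actin ACTG2, followed by LN 3 with 60.3 FPKM, a library with 1126 CPM of the adipocyte hormone ADIPOQ. In bulk tissue, fewer cells that express a gene and less RNA of it per cell cannot be told apart. Of the 36 members, 22 had a median of at least 1 FPKM in the colon and 6 in the libraries labelled ileum, and 2, HOXB1 and HOXC12, had no count in any library.

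**Figure D1:**
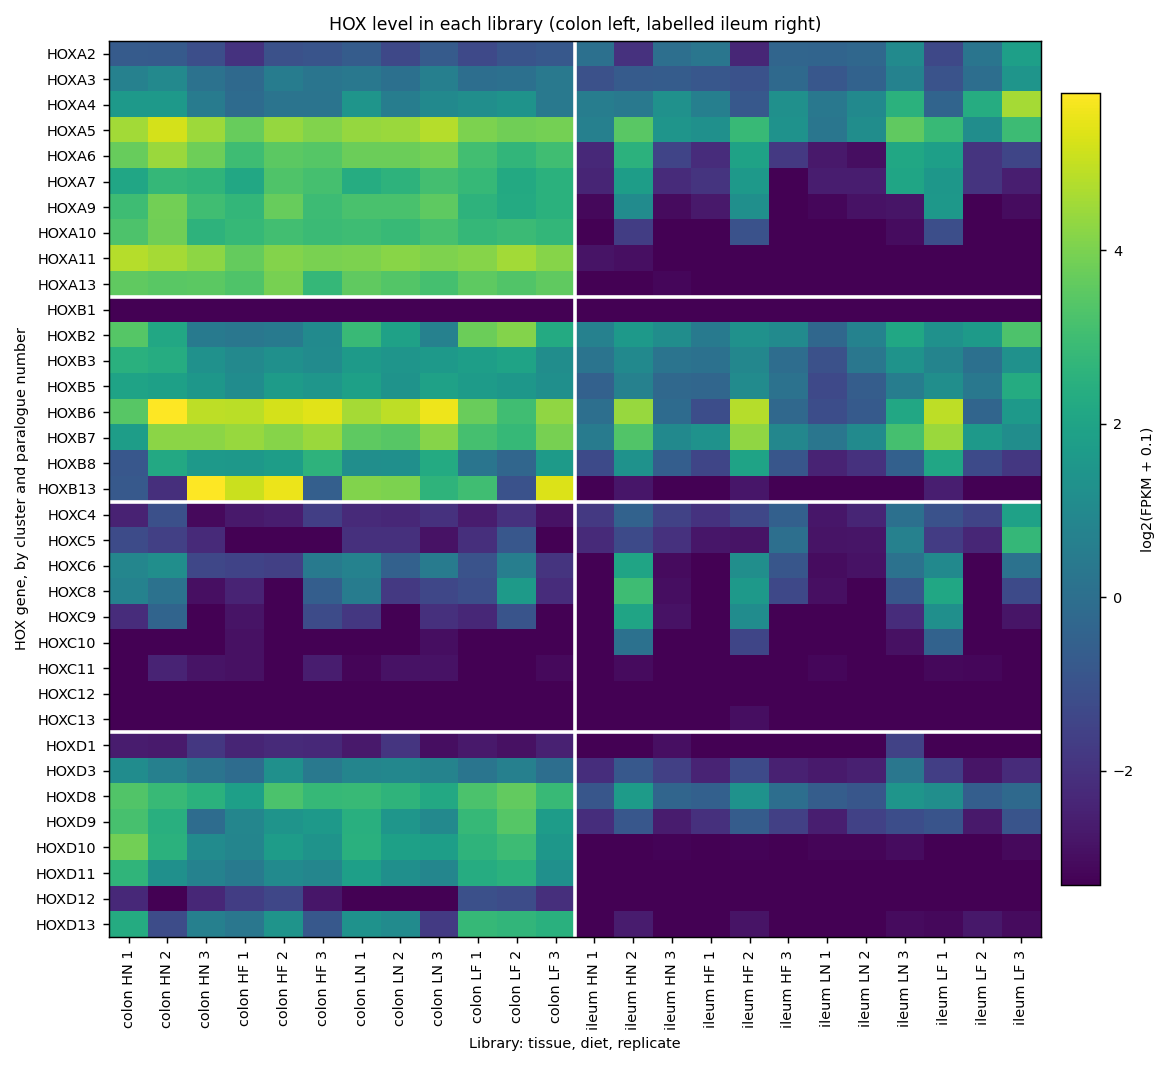
Level of the HOX genes reported (rows, by cluster and paralogue number) in each of the 24 libraries (columns, colon left and labelled ileum right), as log2 of FPKM plus 0.1. In the colon HOXA13 reaches at least 6.71 FPKM, while in the libraries labelled ileum HOXA10 stays at or under 0.388 FPKM, and HN 2, HF 2 and LF 1 carry HOXB6 to HOXB8 and HOXC6 to HOXC9.

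Paralogue groups 10 to 13, the posterior groups, took 20.5%, 37.6% and 47.7% of the summed HOX level (lowest, median and highest of 12) in the colon, against 0%, 0.206% and 1.55% in the libraries labelled ileum. Groups 1 to 3 took 3.12%, 5.41% and 14.9% in the colon, against 5.65%, 30.2% and 38.3% in the libraries labelled ileum. Groups 4 and 5 took 9.47%, 12.6% and 17.6% in the colon, against 11.2%, 35.6% and 62.7% in the libraries labelled ileum. The high shares of groups 1 to 5 were those of the 9 libraries labelled ileum without high FABP6. In HN 2, HF 2 and LF 1 groups 1 to 3 took 5.65% to 7.35% and groups 4 and 5 took 11.2% to 16.9%, inside the ranges of the colon. These shares are of a sum that itself differed between the tissues. By cluster, HOXA held a median of 46.1% in the colon and 45.9% in the libraries labelled ileum, and HOXB 40.3% and 46.0%. HOXD held a median of 10.1% in the colon against 6.10% in the libraries labelled ileum, and HOXC 0.814% against 4.81%. These medians hide a split among the libraries labelled ileum. HOXA held 19.5% to 28.4% in HN 2, HF 2 and LF 1 and 40.0% to 53.4% in the other 9. HOXB held 46.3% to 66.9% in the 3 and 29.1% to 49.2% in the other 9, and HOXC 9.04% to 20.5% and 1.33% to 15.7%.

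**Figure D2:**
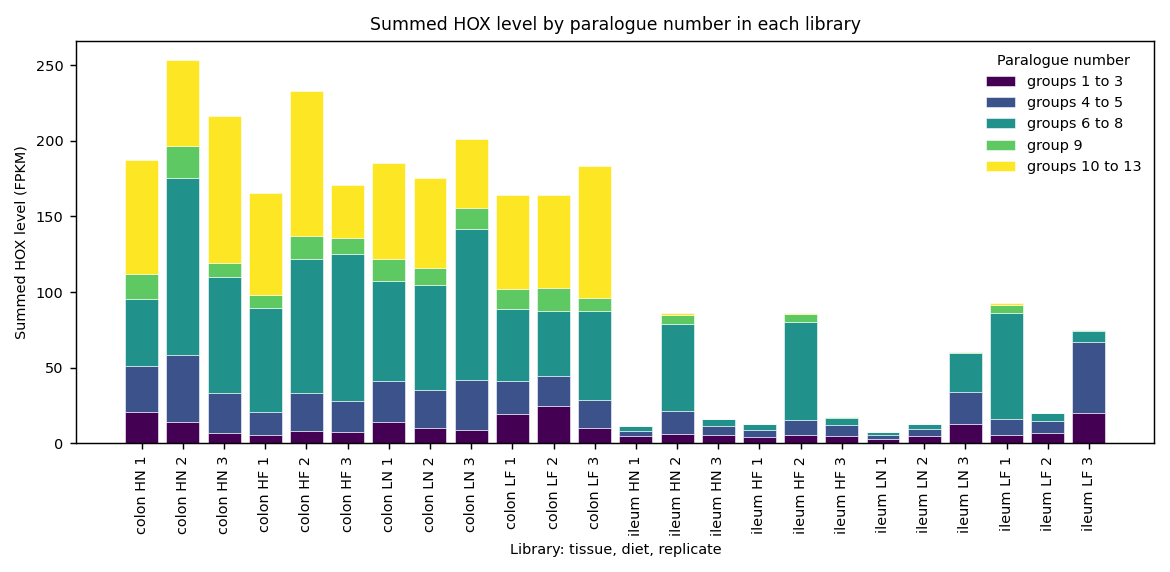
Summed HOX level (FPKM) in each library, colon left and labelled ileum right, split by paralogue group. Groups 10 to 13 take 20.5% to 47.7% of each colon bar and at most 1.55% of any bar labelled ileum, and the bars of HN 2, HF 2 and LF 1 consist mainly of groups 6 to 8.

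Of the 36 members 29 passed the filter on low counts in the model of all 24 libraries, and 17 were higher and 3 lower in the colon than in the libraries labelled ileum (edgeR quasi-likelihood test, adjusted p under 0.05). Of all 15675 genes tested, 28.4% were called, 12.5% higher and 15.9% lower. The median log2 change was 2.05 over the 29 members and −0.03 over all genes tested. HOXA11, HOXA13, HOXB13, HOXD10, HOXD11 and HOXD13 passed the filter only through the colon, so they had to differ, and the count over the members that passed is not evidence about HOX genes as a whole. The members not tested were HOXB1, HOXC10, HOXC11, HOXC12, HOXC13, HOXD1 and HOXD12. In 13 of the 29, all 12 colon libraries lay above all 12 libraries labelled ileum, against 0.434% of all genes tested, and in 0 the colon lay wholly below (1.03% of all genes tested). Those 6 genes are among the 13, where the filter made this pattern likely, so nothing is read from the count. The others were HOXA5, HOXA6, HOXA7, HOXA9, HOXA10, HOXD8 and HOXD9. Without the 3 libraries with FABP6 above 500 CPM 19 members were higher and 4 lower, and with only those 3 as ileum 15 were higher and 2 lower. Without the colon libraries HN 1 and LF 2 the counts were 19 and 2.

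**Figure D3:**
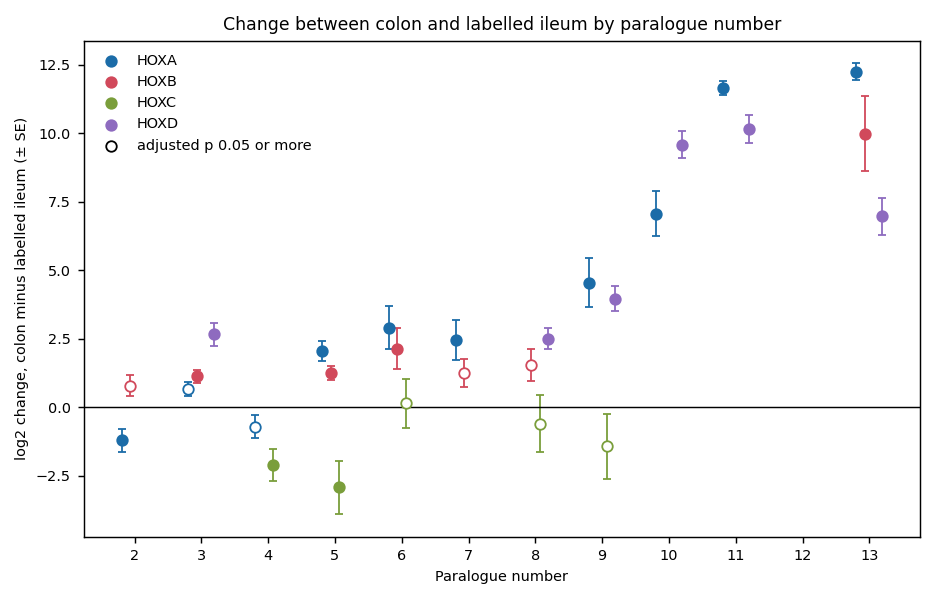
Fitted log2 change, colon minus libraries labelled ileum (vertical axis), with its standard error (bars), of the tested HOX genes reported against their paralogue number (horizontal axis), by cluster. Groups 10 to 13 lie between 6.97 and 12.25, and values for genes with almost no counts in the libraries labelled ileum depend on the prior count of the fit. HOXC10 and the other members not tested are not drawn.

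By paralogue number, 2 of 6 tested genes of groups 1 to 3 were higher in the colon, 2 of 5 of groups 4 and 5, 4 of 8 of groups 6 to 8 and 2 of 3 of group 9. In groups 10 to 13 HOXA10 was higher too, and the other 6 tested were those that passed the filter only through the colon. Of the 5 members of groups 10 to 13 that were not tested, HOXC10 ran the other way, with 2 counts in the colon and 67 in the libraries labelled ileum. In HOXD all 6 tested genes were higher, in HOXA 7 of 11 were higher and 1 lower, in HOXB 4 of 7 were higher, and in HOXC 0 of 5 were higher and 2 lower. The higher genes include HOXD10, HOXD11, HOXD13, HOXA11, HOXA13 and HOXB13, which passed the filter only through the colon. Of all genes tested 12.5% were higher and 15.9% lower, and nothing is read from the counts by cluster.

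HOXA13 (gene ID 100359352, chromosome 18, 45373340 to 45379046, plus strand), which patterns the hindgut, digits and genital tract in mouse and human, had 6.71, 11 and 15.2 FPKM (lowest, median and highest of 12) in the colon. Labelled ileum libraries had 0, 0 and 0.0118 FPKM, a single count in HN 3. The groups did not overlap, and the counts summed to 10892 in the colon and 1 in the libraries labelled ileum. Scaled to library size that is a ratio of 9569 (95% exact interval 1717 to 378002, for counting error only), and the adjusted p was 1.21e-10. By diet its colon level was 12, 11.0 and 11.2 FPKM in HN, 9.69, 15.2 and 6.71 in HF, 12.01, 10.3 and 8.70 in LN, and 11.7, 10.1 and 12.02 in LF. Without the 3 libraries with FABP6 above 500 CPM its adjusted p was 4.57e-10, and with only those 3 as ileum it was 9.65e-07. By the ratio of SD to mean it varied least of the tested members of groups 10 to 13.

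HOXA11, which in mouse patterns the forearm, kidney and uterus, had 12.4, 17.8 and 27.8 FPKM (lowest, median and highest) in the colon. Libraries labelled ileum had 0, 0 and 0.0404 FPKM, from 2 counts in all against 8380 in the colon, a ratio of 3681 (1019 to 30402, adjusted p = 7.87e-11). Its adjusted p was 4.14e-10 without the 3 libraries high in FABP6 and 2.08e-07 with only them as ileum. HOXA10, a gene of the uterus and lumbar spine in mouse, had 5.93, 7.41 and 14.01 FPKM in the colon, against 0, 0 and 0.388 in the libraries labelled ileum. Its log2 change was 7.07 ± 0.81 (standard error, adjusted p = 4.17e-06). The groups did not overlap for either gene, and HOXA10 reached 0.219 to 0.388 FPKM only in HN 2, HF 2 and LF 1, with at most 0.0236 FPKM in the other 9. With only those 3 as ileum its change was 4.75, and without them 12.18, a value that depends on the prior count.

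HOXB13, which marks the tail bud, rectum and prostate in mouse and human, varied more among colon libraries than any other member with a median of at least 1 FPKM there, by the ratio of SD to mean. It had 0.480, 0.135 and 56.2 FPKM in HN, 34.2, 47.1 and 0.577 in HF, 16.7, 16.0 and 6.10 in LN, and 7.94, 0.388 and 40.6 in LF. HN 1, HN 2, HF 3 and LF 2 were low, all under 1 FPKM, and every diet but LN held both low and high libraries. In the libraries labelled ileum there were 4 counts, all in HN 2, HF 2 and LF 1, against 5300 in the colon. That is a ratio of 1164 (454 to 4274, adjusted p = 5.72e-05). Without those 3 the adjusted p was 0.00391, and with only those 3 as ileum it was 0.0745. The low libraries were not alike in makeup: HN 1 and LF 2 held 12805 and 25415 CPM of ACTG2 and little EPCAM, while HN 2 and HF 3 held 1531 and 218 CPM of ACTG2 with 907 and 1185 CPM of EPCAM. The part of tissue makeup in the level of HOXB13 was not tested.

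HOXD10, HOXD11 and HOXD13 had lower colon medians than HOXA13 and HOXA11 but the same contrast between the tissues. HOXD10, a gene of lumbar motor neurons in mouse, had 1.67, 3.49 and 14.4 FPKM (lowest, median and highest) in the colon and 0, 0.00351 and 0.0231 FPKM in the libraries labelled ileum. Its 8029 counts against 9 give a ratio of 784 (413 to 1715, adjusted p = 3.55e-10). HOXD13, a gene of digits and the anal sphincter in mouse, had 4.84, 0.334 and 1.46 FPKM in HN colon, 1.12, 2.53 and 0.468 in HF, 2.45, 2.03 and 0.195 in LN, and 6.80, 6.33 and 5.51 in LF. In the libraries labelled ileum it had at most 0.0609 FPKM, and 1804 counts against 10 give a ratio of 158 (86.0 to 331, adjusted p = 4.96e-07). HOXD13 was low in HN 2, HF 3 and LN 3, and HOXB13 was under 1 FPKM in HN 2 and HF 3 of these. HOXD11, which acts with HOXA11 in mouse limb and kidney, had 1.25, 2.27 and 6.27 FPKM in the colon and no count in any library labelled ileum, so with 3 counts allowed over that group it was at least 564-fold higher (adjusted p = 1.92e-07). HOXD12 had 32 counts against 0, at least 9.37-fold higher by the same floor. HOXD10, HOXD11 and HOXD13 were also called with HN 2, HF 2 and LF 1 left out of the ileum (adjusted p = 2.22e-08, 5.66e-07 and 1.46e-05). With only those 3 as ileum it was 0.000343 for HOXD10, 0.000293 for HOXD11 and 0.0113 for HOXD13.

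The colon libraries thus differed in the share of groups 10 to 13 and in how far HOXD reached towards its posterior end, but not in how far HOXA did. In HN 2, HF 3 and LN 3 groups 10 to 13 took 22.6%, 20.5% and 22.7% of the summed level, and 33.8% to 47.7% in the other 9. In those 3 HOXD11 was the last HOXD gene with at least 1 FPKM, and HOXD13 was in the other 9. HOXA13 was the last HOXA gene at that level in all 12. In HOXB the last was HOXB7 in HN 1 and LF 2 and HOXB8 in HN 2 and HF 3, so the clusters did not sort the libraries alike. HN 2 also had the highest summed level, 254 FPKM, of which its share was taken. HN 2, HF 3 and LN 3 held 907 to 1185 CPM of EPCAM, and ACTG2 at 1531, 218 and 88.4 CPM. HOXA13 was 11.0, 6.71 and 8.70 FPKM in them. The segment of colon has no label, and whether it differed between libraries was not tested.

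**Figure D4:**
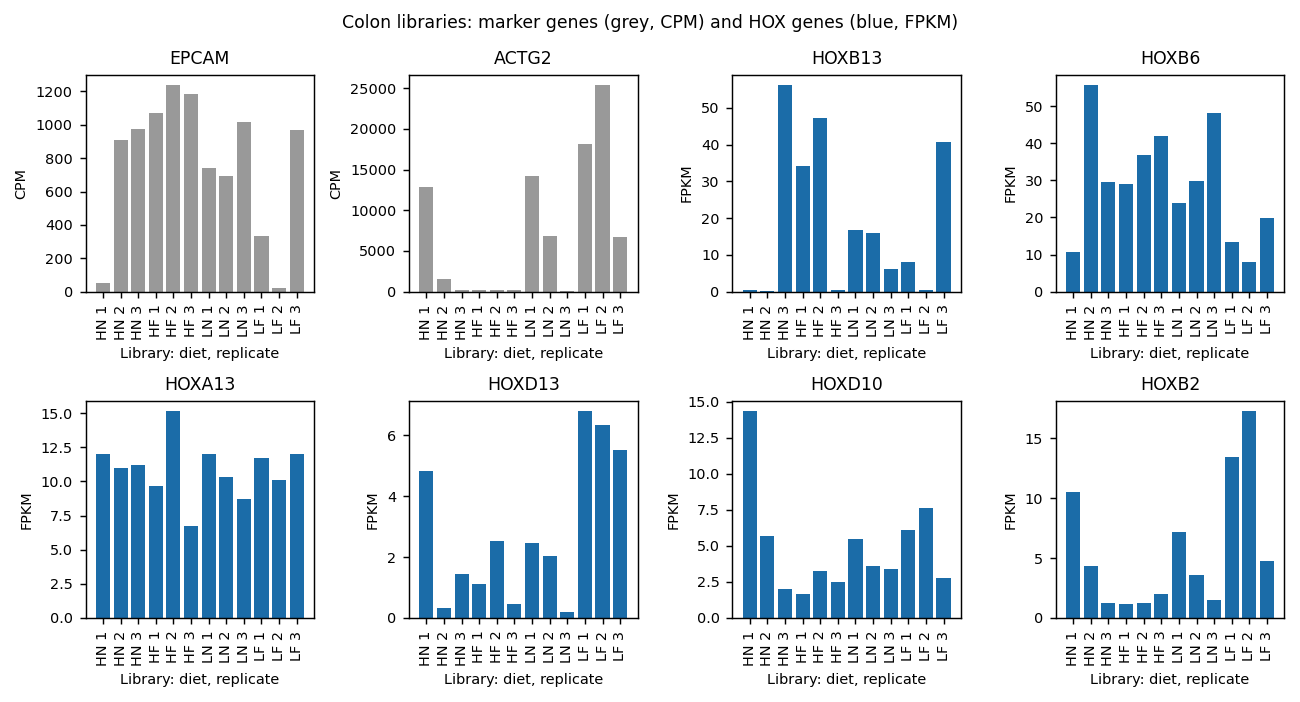
Levels in the 12 colon libraries (bars, by diet, HN, HF, LN and LF from left to right) of EPCAM and ACTG2 (CPM) and of HOXB13, HOXB6, HOXA13, HOXD13, HOXD10 and HOXB2 (FPKM). HOXB13 runs from 0.135 to 56.2 FPKM and ACTG2 from 88.4 to 25415 CPM, whereas HOXA13 stays between 6.71 and 15.2 FPKM.

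The middle of the clusters gave smaller differences that depended on the library. HOXB6, the most abundant HOX gene of the colon by its median, had 7.99, 29.3 and 55.8 FPKM (lowest, median and highest) in the colon, against 0.345, 0.861 and 30.2 FPKM in the libraries labelled ileum. The groups overlapped, because HN 2, HF 2 and LF 1 held 21.2, 27.9 and 30.2 FPKM while the other 9 held 0.345 to 4.38. Its log2 change was 2.13 ± 0.75 (adjusted p = 0.0398). It was 4.60 without those 3 (adjusted p = 1.05e-05) and 0.03 with only those 3 as ileum (adjusted p = 0.974). The call was lost without any 1 of colon HN 2, HF 1, HF 2, HF 3, LN 1 and LN 3, and of ileum HN 1, HN 3, HF 1, HF 3, LN 1, LN 2, LF 2 and LF 3.

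HOXB7 and HOXB8, the next genes of that cluster, did not pass, with log2 changes of 1.23 ± 0.51 (adjusted p = 0.0788) and 1.53 ± 0.58 (0.0569). Without the 3 libraries with FABP6 above 500 CPM they were 2.51 and 3.04 (adjusted p = 0.000206 and 0.000211), and with only those 3 as ileum −0.11 and −0.31 (adjusted p = 0.89 and 0.761). HOXB7 was called without ileum LF 1, HF 2, HN 2 or LN 3 or colon HN 1, and HOXB8 without these or colon LF 2.

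HOXA5, which shapes lung and stomach development in mouse, had 12.7, 20.8 and 37.5 FPKM (lowest, median and highest) in the colon against 1.09, 2.51 and 11.9 FPKM in the libraries labelled ileum. The groups did not overlap, and the log2 change was 2.05 ± 0.38 (adjusted p = 0.000673). HOXA6 had 6.37, 12.1 and 21.7 FPKM in the colon against 0.0266, 0.226 and 5.76 in the libraries labelled ileum, with a change of 2.90 ± 0.78 (adjusted p = 0.0104). HOXA7 and HOXA9, a gene also active in blood progenitors, followed with changes of 2.43 ± 0.73 and 4.55 ± 0.89 (adjusted p = 0.0188 and 0.00102). In all 4 the lowest colon library lay above the highest library labelled ileum. With only HN 2, HF 2 and LF 1 as ileum the changes were 1.33 for HOXA5, 1.42 for HOXA6, 1.17 for HOXA7 and 1.85 for HOXA9. All 4 were still called (adjusted p = 0.00452, 0.00241, 0.0367 and 0.00287), and without those 3 libraries the changes were 2.59, 5.18, 4.93 and 8.53.

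In HOXD, HOXD9 had 0.830, 3.05 and 10.4 FPKM (lowest, median and highest) in the colon against 0.0560, 0.235 and 0.532 in the libraries labelled ileum, with a log2 change of 3.96 ± 0.45 (adjusted p = 4.17e-06). HOXD8 had 3.48, 7.03 and 12.3 FPKM in the colon against 0.446, 0.734 and 3.10 in the libraries labelled ileum, with a change of 2.50 ± 0.39 (adjusted p = 0.000111). Neither gene's groups overlapped. HOXD3, a gene of the first neck vertebrae in mouse, had 0.830, 1.47 and 2.30 FPKM in the colon against 0.0444, 0.122 and 1.13 in the libraries labelled ileum, where LN 3 was the highest. Its change was 2.65 ± 0.43 (adjusted p = 0.000201). All 3 were also called with only HN 2, HF 2 and LF 1 as ileum, with changes of 3.29 for HOXD9, 1.70 for HOXD8 and 2.15 for HOXD3, and without those 3, with 4.52, 3.24 and 3.22 in the same order.

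Among the anterior genes, HOXB3, a hindbrain gene in mouse, had 1.87, 2.74 and 5.48 FPKM (lowest, median and highest) in the colon and 0.383, 1.09 and 2.47 in the libraries labelled ileum, and its log2 change was 1.12 ± 0.25 (adjusted p = 0.00288). HOXB5, which in mouse and human takes part in enteric neuron development, had 2.09, 2.93 and 3.81 FPKM in the colon and 0.306, 1.06 and 4.79 in the libraries labelled ileum, with a change of 1.25 ± 0.27 (adjusted p = 0.00196). For both the groups overlapped. With only HN 2, HF 2 and LF 1 as ileum neither passed (0.86 and 0.70, adjusted p = 0.0605 and 0.0621). Both passed without those 3 (1.30 and 1.48, adjusted p = 0.00338 and 0.00113).

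HOXA2, which patterns the second pharyngeal arch in mouse, was lower in the colon, with 0.152, 0.416 and 0.532 FPKM (lowest, median and highest) against 0.0966, 0.818 and 3.47 in the libraries labelled ileum. Its log2 change was −1.21 ± 0.42 (adjusted p = 0.0369). HN 2, HF 2 and LF 1 held 0.149, 0.0966 and 0.294 FPKM, under all of the other 9, which held 0.671 to 3.47. Without those 3 the change was −1.59 (adjusted p = 0.000665), and with only those 3 as ileum it was 1.33 (adjusted p = 0.0599), so its direction turned with the libraries taken as ileum. The call was also lost without any 1 of colon HN 1, HN 3, HF 1, LN 1, LN 2, LF 1 and LF 2, and of ileum HN 1, HN 3, HF 1, HF 3, LN 3 and LF 3. The direction of HOXA4 turned as well. It had 0.820, 1.64 and 2.92 FPKM in the colon against 0.476, 1.69 and 24.1 in the libraries labelled ileum, and did not pass (−0.72, adjusted p = 0.207). It was −1.02 without the 3 libraries (adjusted p = 0.0322) and 1.28 with only those 3 (adjusted p = 0.0484). HOXA3 and HOXB2 did not pass either, with changes of 0.66 and 0.78 (adjusted p = 0.0676 and 0.126). HOXA3 and HOXB2 were called, both higher in the colon, without ileum LF 3 or without ileum LN 3, and HOXA3 also with only HN 2, HF 2 and LF 1 as ileum (1.51, adjusted p = 0.00704). HOXB2 was 0.94 with only those 3 (adjusted p = 0.364), and without them HOXA3 was 0.51 and HOXB2 0.81 (adjusted p = 0.16 and 0.191).

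HOXC differed from the other clusters. No HOXC gene reached a median of 1 FPKM in either tissue, and no tested member was called higher in the colon. HOXC4, which promotes antibody gene mutation in mouse B cells, had 0.0169, 0.0931 and 0.367 FPKM (lowest, median and highest) in the colon against 0.0459, 0.277 and 3.66 in the libraries labelled ileum, and its log2 change was −2.12 ± 0.59 (adjusted p = 0.0121). The 9 B cell markers measured summed to 13.4 to 286 CPM in the colon and 16.8 to 1244 CPM in the libraries labelled ileum, with none of them at 0 in any library, and their part in this change was not tested. HOXC5 had 0, 0.125 and 0.453 FPKM in the colon against 0.0385, 0.128 and 6.77 in the libraries labelled ileum, with a change of −2.93 ± 0.97 (adjusted p = 0.0337). In both genes LF 3 was the highest library labelled ileum and LN 3 the next. The call of HOXC5 was lost without ileum HN 2, HF 3, LN 3 or LF 3 and without colon HF 1, HF 2, HF 3, LN 1 or LF 1. With only HN 2, HF 2 and LF 1 as ileum neither HOXC4 nor HOXC5 passed (−1.78 and −1.20, adjusted p = 0.111 and 0.429), and without those 3 both did (−2.09 and −3.07, adjusted p = 0.0241 and 0.0411).

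HOXC6, HOXC8, HOXC9 and HOXC10 were higher in HN 2, HF 2 and LF 1 than in every other library labelled ileum. HOXC6 had 1.94 to 3.99 FPKM in those 3, against at most 1.002 in the other 9 and 0.158 to 2.21 in the colon, which its range overlaps. HOXC8, a gene of brachial motor neurons and ribs in mouse, had 7.88, 2.88 and 4.30 FPKM in HN 2, HF 2 and LF 1, against 0 to 0.441 in the other 9 libraries labelled ileum and 0 to 3.05 in the colon. HOXC9, a gene of thoracic motor neurons in mouse, had 3.93, 2.07 and 2.26 FPKM in the same 3, against 0 to 0.121 in the other 9 and 0 to 0.661 in the colon. HOXC10 had 0.959, 0.280 and 0.640 FPKM in them and at most 0.0321 in the other 9. Over all libraries HOXC10 had 2 counts in the colon and 67 in the libraries labelled ileum, a ratio of 0.0262 (0.00311 to 0.0985, for counting error only). In the model of all 24 libraries HOXC6, HOXC8 and HOXC9 did not pass (0.14, −0.60 and −1.43, adjusted p = 0.925, 0.702 and 0.388). With only the 3 as ileum HOXC9 was lower in the colon, with a change of −3.79 (adjusted p = 0.0332), and HOXC6 and HOXC8 did not pass at −1.59 and −2.83 (adjusted p = 0.161 and 0.105). Without the 3, HOXC6 and HOXC8 were 2.54 and 2.69 (adjusted p = 0.0664 and 0.08), and HOXC9 failed the filter on counts. HOXC11 had 34 counts in the colon and 6 in the libraries labelled ileum, and HOXC13 had 0 and 1.

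The 3 libraries thus differed from the other 9 in part of their HOX profile, given here as a description of single libraries, with no test. Groups 6 to 8 took 66.8%, 75.9% and 76.0% of the summed HOX level in HN 2, HF 2 and LF 1, and 10.2% to 43.0% in the other 9 libraries labelled ileum. Groups 1 to 3 took 5.65% to 7.35% in the 3 and 20.6% to 38.3% in the other 9. HOXA9 had 2.02, 2.23 and 2.80 FPKM in the 3 and at most 0.0536 in the other 9, and the colon had 4.66 to 14.6 FPKM. HOXB8 had 2.41, 3.88 and 4.17 FPKM in the 3 and at most 0.593 in the other 9. Not every gene set the 3 apart. LN 3, one of the other 9, had 11.9, 4.24, 4.08 and 2.65 FPKM of HOXA5, HOXA6, HOXA7 and HOXD8. The 3 held 6.95 to 10.9, 3.50 to 5.76, 2.73 to 3.29 and 2.20 to 3.10 FPKM in the same order. The last HOXA gene with at least 1 FPKM was HOXA9 in the 3, HOXA5 or HOXA7 in the other 9, and HOXA13 in every colon library. HOXA13 and HOXD11 had no count in the 3.

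**Figure D5:**
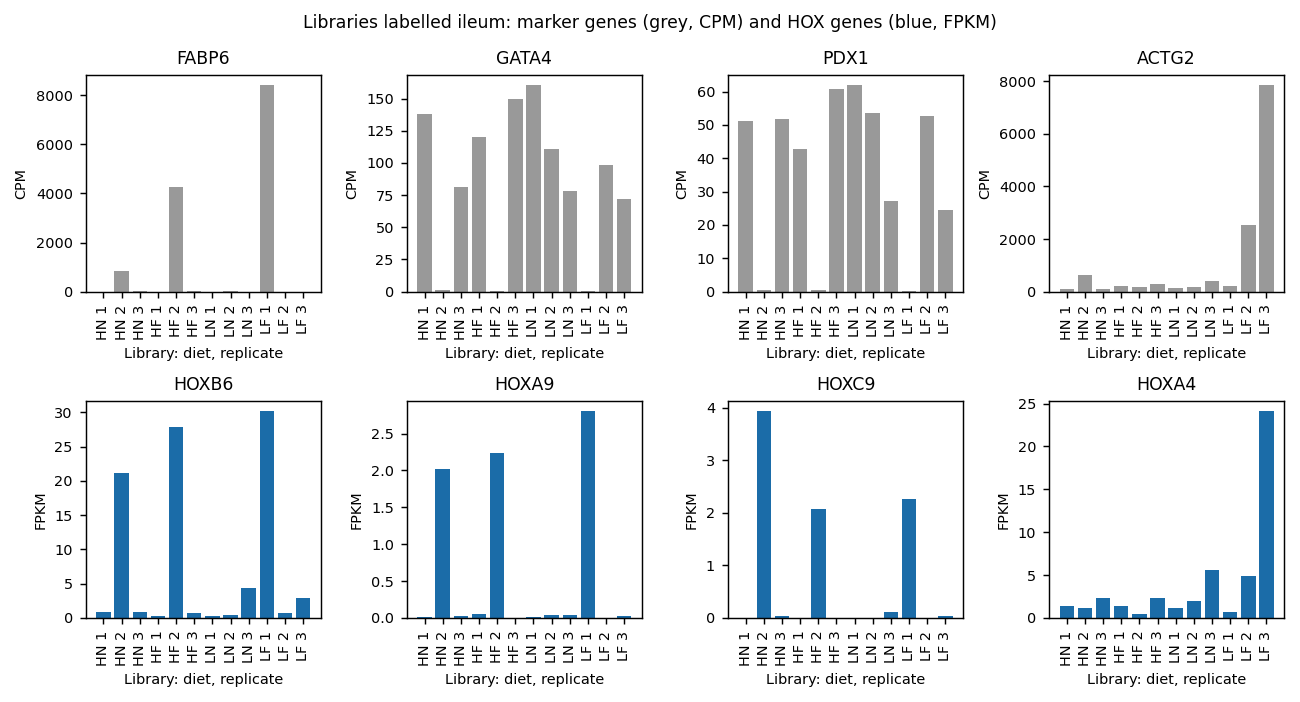
Levels in the 12 libraries labelled ileum (bars, by diet, HN, HF, LN and LF from left to right) of FABP6, GATA4, PDX1 and ACTG2 (CPM) and of HOXB6, HOXA9, HOXC9 and HOXA4 (FPKM). The libraries HN 2, HF 2 and LF 1 are high in FABP6, HOXB6, HOXA9 and HOXC9 and low in GATA4 and PDX1.

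Smooth muscle, the layer in which gut HOX genes are known to be active, also differed between the tissues. Of 17 smooth muscle markers 14 were higher in the colon and 0 lower, and their summed level ran from 2013 to 135868 CPM in the colon and from 1515 to 58260 CPM in the libraries labelled ileum, with no marker at 0. Fibroblast markers were higher for 4 of 12, and enteric neuron and glia markers for 4 of 10, where 28.4% of all genes tested were called in either direction. Of the other lists, colonocyte markers were higher for 9 of 12, adipocyte markers for 2 of 8 and skeletal muscle markers for 3 of 4. Small intestinal enterocyte markers were lower for 13 of 14, B cell markers for 4 of 9 and T and NK cell markers for 3 of 10. Plasma cell markers were lower for 2 of 7 and epithelial markers for 1 of 12, and endothelial markers were called for 0 of 8. The enterocyte list holds FABP6 but also LCT, which was 2.01 to 2.90 CPM in HN 2, HF 2 and LF 1 and 55.9 to 317 CPM in the other 9 libraries labelled ileum. With the smooth muscle mean as a covariate 17 HOX genes were higher and 4 lower in the colon, HOXB6 was lost (2.20, adjusted p = 0.0685), and HOXA4 was called lower (−1.20, adjusted p = 0.0403). With it HOXA13 had 12.17, HOXA11 11.53 and HOXB13 11.80. The part of the other cell types in the HOX differences was not tested.

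Genes whose products act with or on HOX genes were described as lists, against the 28.4% of all genes that were called. Of 11 TALE homeodomain genes tested, whose proteins bind DNA together with HOX proteins, 4 were higher in the colon and 1 lower. PBX3 had a log2 change of 1.16 (adjusted p = 1.63e-06), PBX4 1.48 (0.000611), PKNOX2 0.76 (0.0101) and MEIS3 0.73 (0.0122), and TGIF2, named after its value was seen, had −0.39 (0.0211). PBX3 and PBX4 were also called with only HN 2, HF 2 and LF 1 as ileum (1.48 and 2.01, adjusted p = 0.00297 and 0.0475), and PKNOX2 and MEIS3 were not (adjusted p = 0.343 and 0.0584). TGIF2 was not called without those 3 (adjusted p = 0.11), nor were PKNOX2 and MEIS3 with the smooth muscle covariate (0.38 and 0.27, adjusted p = 0.167 and 0.138). The median of the list was 0.73.

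Of the caudal and ParaHox genes, which act upstream of or beside the HOX clusters in the gut, 3 of 6 passed the filter. CDX1, an intestinal epithelial factor, was higher in the colon (1.78, adjusted p = 0.0118), CDX2 did not pass (1.18, adjusted p = 0.073), and PDX1 was lower (−7.51, adjusted p = 1.76e-05). CDX2 was called without colon HN 1 or without colon LF 2, the libraries with little EPCAM. With only HN 2, HF 2 and LF 1 as ileum neither CDX1 (1.96, adjusted p = 0.266) nor PDX1 (−0.998, adjusted p = 0.524) passed.

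Retinoic acid, a vitamin A derivative that switches on anterior HOX genes in embryos, has its synthesis, breakdown and receptor genes in a list of which 14 were tested, 2 of them higher and 4 lower. ALDH1A3 and ALDH1A1, enzymes that make retinoic acid, had changes of −2.10 (adjusted p = 3.64e-08) and −3.06 (1.70e-05). RDH10, which makes its precursor retinal, had −0.82 (0.000449), and RARB, a receptor, 0.51 (0.0249). Of these ALDH1A3 was still called with only HN 2, HF 2 and LF 1 as ileum (−1.61, adjusted p = 0.000467), and ALDH1A1 was not (−0.33, adjusted p = 0.414). Nor were RDH10 and RARB (adjusted p = 0.183 and 0.0611), and RARB had an adjusted p of 0.0589 without the 3 and 0.229 with the smooth muscle covariate. The binding proteins CRABP2 and CRABP1, named after their values were seen, had 1.61 (0.0434) and −1.95 (0.0401), and leaving out 1 library ended the call in 18 and in 17 of 24 cases. With the smooth muscle covariate neither passed (adjusted p = 0.125 and 0.0519).

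Of 14 chromatin regulators of HOX clusters 0 were called, with 1 at an unadjusted p under 0.05 (6293 of all 15675 genes tested) and 1 called by DESeq2. The smallest p was that of CTCF, an insulator protein (−0.24, adjusted p = 0.0566), which was called without colon LF 3, ileum HN 1, ileum LN 3 or ileum LF 3. Among 12 other homeobox and regional genes 5 were higher and 3 lower. BARX1, a mesenchymal factor of the stomach in mouse, had 2.69 (adjusted p = 0.000599), and FOXF1, a factor of gut mesenchyme, 1.0 (0.000662). GATA4 had −9.45 (7.10e-06). With only HN 2, HF 2 and LF 1 as ileum BARX1 and FOXF1 were called (2.96 and 1.03, adjusted p = 0.0117 and 0.0484), and GATA4 was not (−3.13, adjusted p = 0.0883). Others, named after their values were seen, were SIX2 at 2.30 (0.0103), FOXF2 at 0.98 (0.0392), GATA6 at −1.03 (0.0275) and MNX1 at −1.76 (0.0266). Leaving out 1 library ended the call in 13 of 24 cases for FOXF2 and in 5 each for GATA6 and MNX1. With the smooth muscle covariate SIX2, FOXF2, GATA6 and MNX1 did not pass (1.36, 0.60, −0.52 and −1.02, adjusted p = 0.0753, 0.344, 0.296 and 0.269).

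Genes next to the clusters share the chromosome but not the family. Of 18 tested neighbours, the nearest 2 on each side and those inside a cluster, 5 were called, all higher in the colon, where 28.4% of all genes tested were called and 12.5% were higher. TTLL6, a tubulin polyglutamylase 29760 bases beyond HOXB13, had 4.17 ± 2.78 FPKM in the colon and 0.355 ± 0.516 in the libraries labelled ileum (mean ± SD, n = 12 each), a log2 change of 3.60 (adjusted p = 0.00504). LOC110257186, which lies inside HOXD between HOXD8 and HOXD3, had 0.597 ± 0.383 FPKM in the colon and 0.112 ± 0.101 in the libraries labelled ileum, a change of 2.26 (adjusted p = 0.00267). With only HN 2, HF 2 and LF 1 as ileum neither passed (adjusted p = 0.394 and 0.15). CALCOCO2, HIBADH and MTX2 had 0.46, 0.49 and 0.31 (adjusted p = 0.000517, 0.00634 and 0.0486), and leaving out 1 library ended the call of MTX2 in 18 of 24 cases, as did the smooth muscle covariate (adjusted p = 0.448).

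Diet was compared within each tissue for fibre averaged over NCG, for NCG averaged over fibre and for their interaction, and no HOX gene was called. In the colon 0 of 27 tested members passed for fibre, NCG or the interaction (edgeR quasi-likelihood test, adjusted p under 0.05), and 1, 4 and 5 had an unadjusted p under 0.05. Of all 15075 genes tested, 692, 1863 and 2264 had an unadjusted p under 0.05 in the same order, and 0% were called in each of these comparisons. In the libraries labelled ileum 0 of 23 tested members passed for fibre, NCG or the interaction, with 2, 1 and 0 at an unadjusted p under 0.05. There 0% of all 15103 genes tested were called for fibre, 5.85% for NCG and 0% for the interaction, and 794, 3251 and 672 had an unadjusted p under 0.05. DESeq2 called 2 members for NCG in the colon and 0 in the other 5 comparisons.

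In the colon HOXA6 and HOXA5 came closest. HOXA6 had 12.8, 21.7 and 13.7 FPKM in HN, 7.80, 11.5 and 10.5 in HF, 13.4, 13.5 and 15.0 in LN, and 8.16, 6.37 and 7.92 in LF. The 6 libraries with NCG all lay above the 6 without it, a pattern that was not counted over all genes, so nothing is read from it. The average NCG effect was 0.81 ± 0.17 on the log2 scale, with an adjusted p of 0.196 by edgeR and 0.00125 by DESeq2. It was 0.80 (adjusted p = 0.0104) with the epithelium mean as a covariate and 0.82 (adjusted p = 0.0317) without HN 1 and LF 2. HOXA5 averaged 27.7 ± 8.51 FPKM in HN, 16.8 ± 4.0 in HF, 23.3 ± 3.83 in LN and 15.0 ± 0.981 in LF (mean ± SD, n = 3 each), an average NCG effect of 0.69 ± 0.18 (adjusted p = 0.229 by edgeR, 0.0226 by DESeq2). It was 0.69 with the epithelium covariate (adjusted p = 0.0351). The rows of these genes overlap each other by 257 bases, and how reads there were counted is not given in the sources used here. HOXA9 followed with 0.54 (adjusted p = 0.355).

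For fibre in the colon the members with the smallest p were HOXB2 at −1.33, HOXB6 at 0.66 and HOXA6 at 0.30 (adjusted p = 0.836 each). HOXB2, a hindbrain gene in mouse, had 10.5, 4.31 and 1.23 FPKM in HN, 1.14, 1.25 and 1.98 in HF, 7.21, 3.62 and 1.53 in LN, and 13.4, 17.3 and 4.75 in LF. The libraries with most HOXB2 also held much ACTG2, which was 12805, 1531 and 142 CPM in HN and 158, 191 and 218 in HF. It was 14259, 6815 and 88.4 CPM in LN, and 18131, 25415 and 6690 in LF. With the smooth muscle covariate the fibre value of HOXB2 was −0.16 (adjusted p = 0.904) and its interaction value 0.65, against 3.41 without the covariate (adjusted p = 0.327). Because ACTG2 differed between HF and LF, diet and smooth muscle content cannot be told apart for HOXB2. The other members named for the interaction were HOXA11 at 0.87 and HOXB3 at 1.20, with the same adjusted p.

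In the libraries labelled ileum the fibre values with the smallest p were HOXA4 at −1.85, HOXA3 at −1.11 and HOXC5 at −2.21 (adjusted p = 0.802 each). HOXA4 had 1.38, 1.19 and 2.37 FPKM in HN, 1.44, 0.476 and 2.32 in HF, 1.16, 1.94 and 5.55 in LN, and 0.674, 4.89 and 24.1 in LF. LF 3, the highest, was also the library with most smooth muscle RNA in this tissue. Without LF 3 the fibre value of HOXA4 was −0.89, and with the smooth muscle covariate it was 0.10. The cause of the HOXA4 values was not tested. For NCG they were HOXB5 at −1.17, HOXB8 at −1.50 and HOXA9 at −2.55 (adjusted p = 0.205, 0.404 and 0.417). For the interaction they were HOXB5 at 1.45, HOXB2 at 1.39 and HOXC9 at 4.87 (adjusted p = 0.872 each). The 3 libraries high in FABP6 fall in HN, HF and LF and not in LN, so the diets are not balanced in it. In the other 9 HOXA9 was at most 0.0536 FPKM and HOXC9 at most 0.121 FPKM, and neither passed the filter on counts in the model of this tissue without the 3. Without them HOXB8 was 0.26 for NCG (adjusted p = 0.854). Leaving out 1 library gave −3.59 to −0.22 for the fibre value of HOXC5, −2.12 to −0.19 for the NCG value of HOXB8 and −5.08 to 0.46 for that of HOXA9. It gave 0.45 to 2.33, 0.68 to 2.25 and −0.69 to 11.94 for the interaction values of HOXB2, HOXB5 and HOXC9.

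The difference between the tissues in their diet effect was tested as well. For fibre and for NCG 0 of 29 members passed, with 1 at an unadjusted p under 0.05 in each and 0 called by DESeq2. The 29 include HOXA11, HOXA13, HOXB13, HOXD10, HOXD11 and HOXD13, which had at most 10 counts in all the libraries labelled ileum. A diet effect there, and so its difference from the colon, could not be estimated for these genes, and nothing is read from their not passing. Of all 15675 genes tested 0% were called in either, and 437 and 469 had an unadjusted p under 0.05. For fibre, colon minus libraries labelled ileum, the members with the smallest p were HOXA3 at 1.27, HOXA4 at 1.45 and HOXC8 at −2.68. For NCG they were HOXB5 at 1.43, HOXC5 at 3.78 and HOXA9 at 3.08 (adjusted p = 1 for all 6). How far these values rested on single libraries differed between genes. Leaving out 1 gave 0.040 to 5.66 for the NCG value of HOXA9 and 1.85 to 5.55 for that of HOXC5. It gave 1.08 to 1.82 for the NCG value of HOXB5. For fibre it gave 0.77 to 1.55 for HOXA3, 0.53 to 1.79 for HOXA4 and −4.23 to 0.86 for HOXC8.

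The pathway lists gave few diet calls. In the libraries labelled ileum ASH1L and SUZ12, members of opposing chromatin complexes at HOX genes, were higher with NCG (0.66 and 1.02, adjusted p = 0.0136 and 0.0165), and NKX2-3, a homeobox gene of gut mesenchyme, was lower (−0.81, adjusted p = 0.0414). Of all 15103 genes tested for NCG there, 819 were higher and 65 lower, 5.85% in all. DESeq2 called 2 higher chromatin regulators there, 1 lower member of the caudal and ParaHox list and 1 lower member of the other homeobox and regional list. Without the 3 libraries high in FABP6 ASH1L was 0.67 (adjusted p = 0.0837) and NKX2-3 −0.88 (adjusted p = 0.129). The call of SUZ12 was lost without LF 2 or HF 1, and that of NKX2-3 in 11 of 12 single omissions. In the other 7 diet comparisons, interactions and tissue differences included, edgeR called 0 members of any of the 5 lists. At most 6 of a list, the TALE genes in the colon interaction, had an unadjusted p under 0.05, as did 2264 of all 15075 genes in that interaction. DESeq2 called 1 in these 7 comparisons, a lower member of the other homeobox and regional list for NCG in the colon.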

How the data were processed

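Per the submitters' processing notes reads were handled by the authors with HTSeq 0.9.1, HISAT2 2.1.0 and fastp 0.22.0 on the build Sscrofa11.1, with settings not given in the sources used here. The deposited table holds raw counts per gene and library, FPKM values the authors made from counts, gene length and library total (recomputed here to a relative difference of at most 2.1e-07), and the gene length in bases, another unit, per the file headers. Poly(A) RNA was captured and primed at random, per the labels. Counts were fitted in R 4.3.3 with edgeR 4.0.16 (filterByExpr, TMM, quasi-likelihood F-tests), with Benjamini-Hochberg adjustment over all genes tested and a threshold of 0.05. The model of 24 libraries had 8 group means, and each tissue had a model of 4 diet means. Levels are FPKM recomputed with TMM-scaled library sizes, or TMM-scaled CPM. DESeq2 1.42.0, RLE size factors, no filter, a replicate block, marker covariates and leaving out each library were alternatives. A count of 0 allows up to 3 counts. Named genes follow a rule: all members, the 4 of each list with the smallest p, the nearest 2 neighbours on each side, and exceptions as stated. Some members and listed genes that enter the counts are not reported here by name. Members and lists were chosen with earlier results of these data known. The fits were tested on simulated data. Sequences were not used here.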

Additional observations from a re-analysis of the deposited data

How the results depend on the processing

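Of the 20 HOX genes called between colon and libraries labelled ileum, 13 were called in every one of 33 alternatives that gave an adjusted p, namely HOXA5, HOXA6, HOXA7, HOXA9, HOXA10, HOXA11, HOXA13, HOXD3, HOXD8, HOXD9, HOXD10, HOXD11 and HOXD13 (DESeq2 gave none for HOXA6). Of these, HOXA11, HOXA13, HOXD10, HOXD11 and HOXD13 passed the filter only through the colon, so such calls were likely beforehand. The same count was not made over all genes called, so nothing is read from it. HOXB3, HOXB5, HOXB13 and HOXC4 were lost only with the 3 libraries high in FABP6 as the ileum. Single omissions gave 16 to 21 members higher and 1 to 3 lower in the colon, 13 to 14 whose libraries did not overlap, and median summed levels of 184 to 186 FPKM in the colon and 17.03 to 19.9 FPKM in the libraries labelled ileum. There was 1 lower without colon HF 1, LN 1 or LF 1, or ileum HF 3, LN 3 or LF 3. With the replicate block 20 were higher and 1 lower, HOXA2 and HOXC5 being lost (adjusted p = 0.202 and 0.28), and no diet call of a member appeared. Lost with it too among the other genes named were CDX1, CRABP1, GATA6, MNX1, PKNOX2, RARB, SIX2 and TGIF2 (adjusted p = 0.059 to 0.272). Whether the replicate numbers pair colon and ileum libraries could not be told from the counts, because deviations between libraries also carry differences in tissue makeup. Deviations of same-numbered colon and ileum libraries correlated between −0.37 and 0.31, over 0.1 in 5 of 12 pairs. Of the 12, 6 correlated best with their own number. For NCG in the colon the count of higher members was 2 with DESeq2, 2 with the epithelium covariate and 1 without HN 1 and LF 2, against 0 otherwise. Directions turned with only the 3 libraries high in FABP6 as ileum for HOXA2 (1.33), HOXA4 (1.28), HOXB7 (−0.11), HOXB8 (−0.31), HOXC6 (−1.59) and CRABP1 (1.75). Without those 3 they turned for HOXC8 (2.69, and 0.69 for its fibre difference between tissues), HOXB8 for NCG in the ileum (0.26) and KMT2A (0.036). With the smooth muscle covariate they turned for HOXB2 (−0.25), HOXC6 (−0.50), KMT2B (0.013) and, for fibre in the ileum, HOXA4 (0.10) and HOXC5 (0.96). With the epithelium covariate HOXC9 turned in the ileum interaction (−0.29). With the block HOXC8 was 0.31, and without colon HN 1 and LF 2 HOXC6 was −0.17. Single omissions gave −0.16 to 1.81 for HOXC6 (below 0 without colon HF 3 or LF 2 or ileum HN 1, HN 3 or HF 1), −1.16 to 1.18 for HOXC8 (above 0 without ileum HN 2, HF 2, LN 3 or LF 1) and −2.02 to 0.36 for HOXC9 (above 0 without ileum HF 2). They gave −4.23 to 0.86 for the fibre difference of HOXC8 (above 0 without ileum HN 2), −5.08 to 0.46 for the ileum NCG value of HOXA9 (above 0 without LF 1) and −0.69 in the ileum interaction of HOXC9 without ileum HN 2. The cause was not tested. With the deposited FPKM the medians were 182 FPKM in the colon and 18.2 FPKM in the libraries labelled ileum.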
